A study of Mus musculus with 7 samples.

Results

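The nuclei described here were GABAergic hippocampal nuclei rich in *Adarb2* transcripts, a set that approaches the interneurons of the caudal ganglionic eminence (CGE). They were chosen by measured values: a nucleus of a single-nucleus well had at least 2000 and fewer than 50000 transcripts and more than 400 genes, at least 3 transcripts of *Gad1* and *Gad2* together, at most 1 transcript of *Slc17a7*, at least 3 transcripts of *Adarb2*, and more *Adarb2* than *Nxph1*, *Lhx6* and *Sox6* together. Of 32312 nuclei in that depth range, 878 (2.72%) met the rule. They made up 28.4% of the 3091 nuclei that met the conditions on *Gad1*, *Gad2* and *Slc17a7*, beside 1767 nuclei (57.2%) in which *Nxph1*, *Lhx6* and *Sox6* summed to at least 3 and exceeded *Adarb2*, called MGE-like after the medial ganglionic eminence, and 446 (14.4%) of neither kind.

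Inhibitory interneurons of the hippocampus arise mainly from the medial and the caudal ganglionic eminence of the embryonic forebrain. Those of medial origin express the transcription factors LHX6 and SOX6 and include the parvalbumin and somatostatin cells, whereas those of caudal origin include cells that make vasoactive intestinal peptide (VIP), cholecystokinin (CCK) basket cells that carry the cannabinoid receptor CB1 on their terminals, and part of the neurogliaform cells, which release GABA diffusely. Many VIP cells inhibit other interneurons, so that their firing releases pyramidal cells from inhibition, while CCK basket cells contact the cell bodies of pyramidal cells and are silenced by endocannabinoids.

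The mice were wild type (WT) or Arctic48 (Arc), both from crosses of the Arctic48 line with C57BL6/J mice. The Arc mice were hemizygous for a human APP transgene with the Swedish, Indiana and Arctic mutations. Mice of each genotype drank water (veh) or water with 20 µg/ml PMX205 (PMX), a cyclic hexapeptide antagonist of the complement receptor C5aR1, for 12 weeks by the sample labels (the ages given in the study's text span a somewhat shorter time), and the hippocampi were taken at 10 months. Nuclei were barcoded by split-pool ligation, and the first-round well, which held nuclei of 1 mouse, identifies the animal: 24 wells, 6 for each genotype and drink (WT-veh and WT-PMX, Arc-veh and Arc-PMX), with 3 females (F1 to F3) and 3 males (M1 to M3) per group. The comparisons ask whether the genotype, the antagonist, or both together went with a change in these nuclei. Transcripts of the human gene are not represented in the mouse reference, Arctic48 is a single transgenic line, and the hippocampal tissue was homogenized, so the position of a nucleus in the tissue is unknown.

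The number of these nuclei per well ran from 14 in Arc-veh F1 to 66 in Arc-veh M2, with a median of 31.5, and there were 219 in WT-veh wells, 212 after PMX205 in WT, 228 in Arc-veh wells and 219 after PMX205 in Arc. Their transcripts per well ran from 72764 to 1188300 with a median of 367590. The median nucleus had 10091 transcripts and 3199.5 genes, against 11063 transcripts in MGE-like nuclei and 7002 in nuclei that were not GABAergic by the rule. A total of 16 of the 878 nuclei had a doublet score above 0.25, 8 had at least 1% mitochondrial transcripts, and 4 barcodes met the rule in more than 1 of the 7 sublibraries, leaving 874 distinct barcodes. Each sublibrary gave 99 to 136 of the nuclei. Tests between groups took the well as the replicate, and their p-values measure only the spread between these wells.

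Nuclei close to a limit of the rule carried less of the interneuron profile than the whole set, in genes the rule did not use. *Cnr1*, which encodes CB1, was detected in 59.2% of all 878 nuclei and *Erbb4*, a neuregulin receptor of interneurons, in 84.4%. In the 25 nuclei with 3 to 5 *Adarb2* transcripts the shares were 20% and 60%, and in the 48 nuclei left outside with 1 or 2 *Adarb2* transcripts they were 33.3% and 43.8%. The 206 nuclei with exactly 3 *Gad1* and *Gad2* transcripts had *Cnr1* in 38.3%, and the 464 left outside with 2 had it in 19.6%. The 740 nuclei with at least 20 *Adarb2* transcripts had *Cnr1* in 66.9% and *Erbb4* in 90.3%, and the other 138 in 18.1% and 52.9%. The 80 nuclei with exactly 1 *Slc17a7* transcript had *Cnr1* in 31.25% and *Erbb4* in 42.5%, at a median of 13611.5 transcripts. The 32 nuclei with *Adarb2* above the sum of *Nxph1*, *Lhx6* and *Sox6* by 1 to 3 had them in 21.9% and 78.1%. In the 30 left outside, at or below that sum by up to 3, the shares were higher, at 26.7% and 83.3%. Nuclei with few *Adarb2* or *Gad1* and *Gad2* transcripts were shallower. Their median was 7136 transcripts with 3 to 5 *Adarb2*, 8508 with 3 *Gad1* and *Gad2*, and 7977 with under 20 *Adarb2*, against 10091 in all. The part of depth in these shares was not tested. These are descriptions without a test.

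Whether the nuclei matched their label was examined by clustering them among themselves, which gave 16 clusters, of which 3 stood apart: 2 with hardly any *Gad2*, and 1 with glial genes beside interneuron genes. Cluster 5 (74 nuclei) was led by *Chst9*, *Itga8*, *Glis3* and *Rfx3*, and cluster 10 (47 nuclei) by *Trpc6* and *Bdnf*, and both held 5 of 6 marker genes of dentate granule neurons in at least 10% of nuclei. In cluster 5, *Gad1* was detected in 95.9% of nuclei but *Gad2* in 8.1%, *Erbb4* in 17.6%, and the granule cell genes *Prox1* and *Glis3* in 94.6% and 100%. In cluster 10, *Gad1* was in 100% and *Gad2* in 8.5%, with *Prox1* in 87.2% and *Glis3* in 97.9%. *Gad1* and *Gad2* encode the enzymes that make GABA, and interneurons express both. Cluster 12 (42 nuclei, median 18197.5 transcripts) was led by *Prr5l* and the myelin genes *Mobp* and *Mag*, held 9 of the 16 nuclei with a high doublet score, and, beside *Gad1* in 92.9% and *Gad2* in 71.4% of nuclei, carried all 6 oligodendrocyte, all 6 microglia and all 8 astrocyte markers in at least 10% of nuclei.

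Clusters 5 and 10 together were 121 nuclei (13.8% of the set) and cluster 12 was 42 (4.78%). The 715 nuclei of the other 13 clusters (81.4%), called the core below, are those in clusters with *Gad2* in at least 20% and *Mog* in under 20% of nuclei, a limit set after the data were seen. The label holds for the core only in part, since some core clusters also carried MGE genes, as given below. Shares, counts of called genes and list medians are given for all 878 nuclei and for the core, and levels in the core for some single genes. Within the core, clusters 7 and 16 carried the MGE transcription factor *Lhx6* in 57.4% and 50% of nuclei, and cluster 16 (16 nuclei) came from 5 wells, with 50% of it from 1 well. Cluster 2 (81 nuclei) was led by *Foxp2*, *Meis2* and *Prdm16* and had *Erbb4* in 71.6% but the striatal gene *Rgs9* in 56.8%. It held 5 of the 16 nuclei with a high doublet score, and no other core cluster held any. Of 6 genes of striatal projection neurons, 3 were in at least 10% of its nuclei, against 1 or 2 in each other cluster. Their summed level did not set it apart, at 575 CPM (defined below) against 629 in cluster 12 and 577 in cluster 14. Cluster 2 therefore stays unnamed.

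The remaining clusters separated along genes known from CGE interneurons, and since the clusters were made from the expression of these same nuclei, the shares are descriptions. Cluster 4 (76 nuclei) was led by *Vip*, found in 75% of its nuclei, with the calcium-binding protein gene *Calb2* in 31.6%, the enkephalin gene *Penk* in 19.7%, and both *Prox1* and *Cnr1* in 86.8%. Cluster 8 (49 nuclei), led by *Col14a1* and *Megf11*, had *Cck* in 61.2%, *Vip* in 34.7%, *Cnr1* in 98.0% and the transcription factor *Npas1* in 87.8%, and held 7 of 12 VIP and CCK genes in at least 10% of nuclei. *Cck* was also in 31.8% of cluster 11 (44 nuclei), where *Cnr1* was in 97.7%, the serotonin receptor subunit gene *Htr3a* in 45.5%, and *Slc17a8*, which encodes a vesicular glutamate transporter known from CCK cells, in 29.5%. *Slc17a8* reached 78.6% of nuclei in cluster 14 (28 nuclei) and 75% in cluster 15 (20 nuclei), where *Htr3a* reached 70%, and *Cck* was in 35.7% and 20% of these clusters. Cluster 6 (68 nuclei), led by *Syt6* and *Cadps2*, had *Cnr1* in 97.1%, *Npas1* in 92.6%, *Htr3a* in 51.5% and the chemokine gene *Cxcl14* in 50%.

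Of the neurogliaform genes, 8 of 9 were in at least 10% of nuclei in cluster 1, 7 in clusters 7 and 12, and 0 to 4 in the other clusters. Cluster 1, with 100 nuclei, was led by *Kit* (94%) and had *Sv2c* in 87%, *Reln* in 83%, *Ndnf* in 62% and *Lamp5* in 40%. *Reln* encodes the secreted glycoprotein reelin. In cluster 3 (76 nuclei) *Ndnf* was in 73.7% and *Reln* in 84.2%, and *Cnr1* was in 88.2%, against 49% in cluster 1, but only those 2 of the 9 neurogliaform genes were in at least 10% of its nuclei, with *Lamp5* in 0% and *Kit* in 3.9%. Cluster 7 (68 nuclei, found in all 24 wells) had *Nos1*, which encodes neuronal nitric oxide synthase, in 89.7%, *Reln* in 77.9% and *Lamp5* in 57.4%, but *Cnr1* in 10.3% and *Nxph1*, one of the genes the rule set against *Adarb2*, in 100%. The 2 remaining clusters were led by *Gm39185* and *Thsd7b* (cluster 9, 47 nuclei) and by *Chrm2* and *Oprd1* (cluster 13, 42 nuclei). Cluster 7 was not alone in MGE transcripts. The 6 MGE interneuron markers, which include *Nxph1*, *Lhx6* and *Sox6*, summed to 2924 CPM in cluster 1, 2663 in cluster 7 and 2884 in cluster 13. Of these 6 genes, 1, 2 and 1 were in at least 10% of nuclei of those clusters. In each other cluster the sum was at most 1215 CPM.

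**Figure D1:**
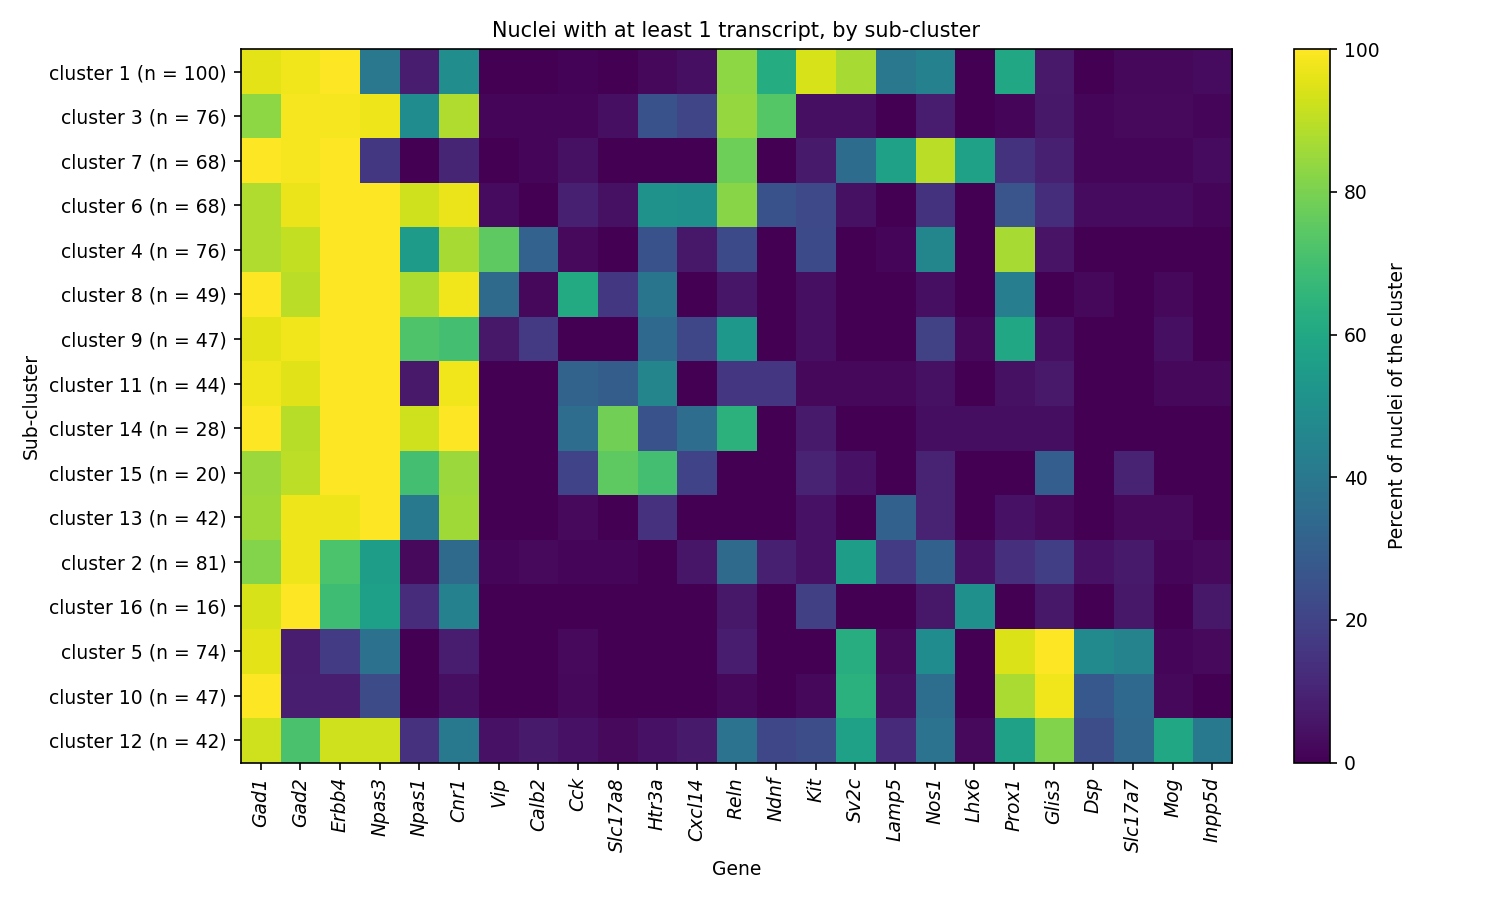
Colour gives the percent of nuclei with at least 1 transcript of each gene (horizontal) in each of the 16 clusters of the 878 nuclei (vertical, with the number of nuclei). Clusters 5 and 10 show *Gad1* with hardly any *Gad2*, cluster 12 shows the oligodendrocyte gene *Mog*, and *Vip* is concentrated in cluster 4 at 75%.

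Within single nuclei, *Vip* went with *Cnr1* more often than with the neurogliaform genes *Ndnf*, *Lamp5* and *Npy*. Of the 83 nuclei with a *Vip* transcript, 74 (89.2%) had *Cnr1*, against 56.1% of the other nuclei, although the *Vip* nuclei were shallower (median 7886 against 10334 transcripts). *Prox1* was in 72 of them (86.7%), *Htr3a* in 27 (32.5%), *Calb2* in 23 (27.7%) and *Cck* in 10, whereas *Ndnf* and *Lamp5* were in 1 each and *Slc17a8* and *Npy* in 0. These last 4 genes were also less common than *Cnr1* in the nuclei without *Vip*, with *Ndnf* in 19.7%, *Lamp5* in 14.6%, *Slc17a8* in 8.30% and *Npy* in 5.66%. Of the other neurogliaform genes, *Kit* was in 16 of them (19.3%, against 18.5% of the rest) and *Reln* in 19 (22.9%, against 45.2%). Of the 78 *Cck* nuclei, 28 (35.9%) had *Slc17a8* and 30 (38.5%) had *Htr3a*. A transcript that is not seen in a nucleus of this depth may still be present, and mixed nuclei were kept.

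The level of each gene was next set beside that in MGE-like nuclei, as CPM (a gene's count over all counts, scaled to a common total) of the summed nuclei of each well, with the mean ± SD over the 24 wells. Since the rule contrasts both kinds, none of these levels carries a test. *Adarb2* itself (chr13:8202866-8768747, plus strand; mm10 throughout), a catalytically inactive relative of the RNA-editing enzymes and the gene the rule used, stood at 14577 ± 3965 CPM against 163 ± 87.9. It is not restricted to interneurons, since 45.3% of the nuclei that were not GABAergic had a transcript of it, at 732 CPM. *Gad1* (chr2:70553072-70602014) was at 355 ± 98.5 against 355 ± 60.7 CPM, and *Gad2* (chr2:22622205-22693874) at 381 ± 81.2 against 336 ± 45.8 CPM.

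*Cnr1* (chr4:33924593-33948831, plus strand) separated more clearly between the wells than *Vip*, the other marker of the set outside the rule. It was at 410 ± 118 CPM (135 to 750 over the wells) against 31.1 ± 13.4 CPM (10.2 to 60.6), a 13.2-fold difference of means. The wells of both kinds did not overlap. Other genes outside the rule had larger differences of means, such as *Rgs12* at 20.6-fold. After thinning each nucleus to 5000 transcripts, which left 770 and 1617 nuclei and dropped 108 and 150, *Cnr1* was in 51% and 13.9%. Without thinning it was in 59.2% and 21.7%, and in 20.2% of nuclei outside the GABAergic set. In the core its mean rose to 500 CPM.

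*Vip* (chr10:5639218-5647617, plus strand) was at 21.8 ± 19.6 CPM against 0.0654 ± 0.248 CPM in MGE-like nuclei, and was higher in 20 of 24 wells. It was detected in 9.45% of the nuclei, 0.113% of MGE-like nuclei and 0.27% of the nuclei outside the GABAergic set. Nuclei with a detected *Vip* transcript were a minority at this depth, and the well values ran from 0 to 65.7 CPM. *Htr3a* was at 25.8 ± 14.8 against 0.514 ± 0.846 CPM and higher in 23 wells, with 18.1% of nuclei positive. *Slc17a8* was at 41.9 ± 26.1 against 3.65 ± 4.52 CPM, *Cck* at 14.3 ± 9.11 against 2.14 ± 2.24 CPM and *Cxcl14* at 15.3 ± 11.8 against 2.13 CPM, each higher in 23 wells. The other VIP and CCK genes separated less or were sparse. *Calb2* was higher in 15 wells and *Penk* in 16, *Tac2* was at 3.76 against 0.0637 CPM, *Calb1* was at 23.8 against 30.4 CPM, *Crh* was at 0.348 against 0.389 CPM, and *Sncg*, which encodes gamma-synuclein, was seen in 4 nuclei.

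Of the transcription factors listed for CGE interneurons, *Npas1*, *Npas3*, *Prox1* and *Nfib* were above the MGE-like level in all 24 wells. *Npas3* was at 2812 ± 666 CPM (1924 to 4410) against 942 ± 206 CPM (673 to 1410), and its ranges did not overlap. *Npas1* was at 82.3 ± 35.7 against 17.9 ± 8.52 CPM, a 4.6-fold difference, and at 99.7 CPM in the core. *Prox1*, which is needed for CGE interneurons to mature but also marks granule neurons, was at 117 ± 49.1 against 14.8 ± 9.55 CPM, and it fell to 72.6 CPM in the core, since clusters 5 and 10 carry it. *Nfib* was at 644 ± 102 against 269 ± 71.0 CPM, near its 610 CPM outside the GABAergic set. *Nr2f2*, known as COUP-TFII, was higher in 20 wells (17.8 ± 11.2 against 8.29 CPM) and *Nr2f1* in 17, while *Sp8* was sparse at 1.92 against 0.925 CPM and *Sp9* was lower in 23 wells (5.57 against 13.4 CPM).

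**Figure D2:**
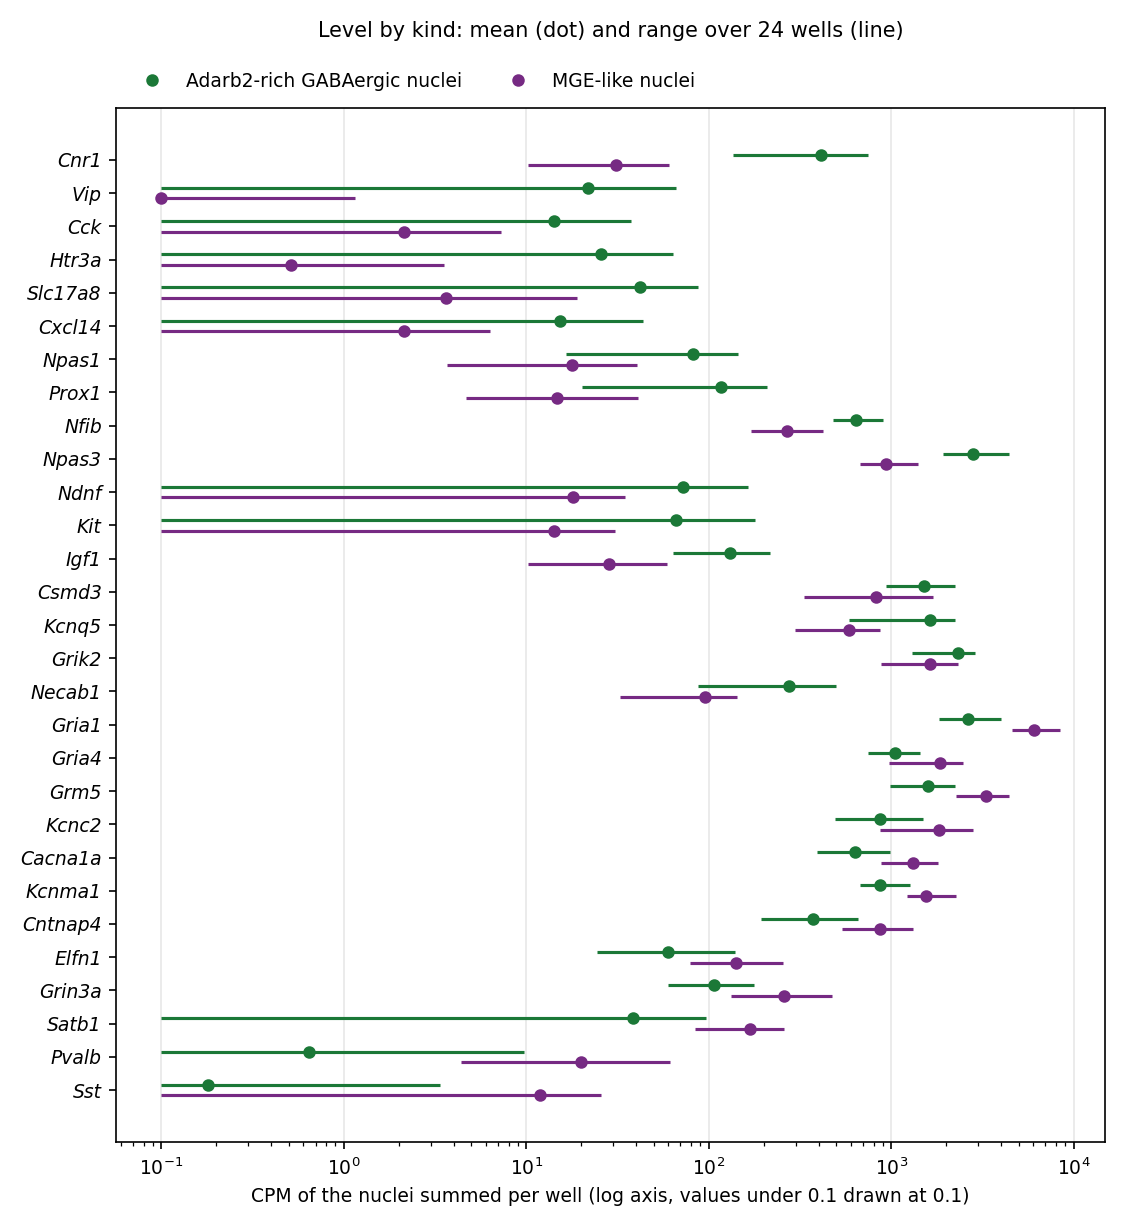
Level in CPM on a log axis for interneuron, receptor, channel and adhesion genes in the *Adarb2*-rich and the MGE-like nuclei, with a dot for the mean and a line for the range over the 24 wells (values under 0.1 drawn at 0.1). The lines of *Cnr1*, *Npas3* and *Igf1* do not overlap between the kinds, with the *Adarb2*-rich nuclei higher, and *Sst*, *Pvalb* and *Satb1* have higher means in the MGE-like nuclei.

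Neurogliaform genes were mostly higher too, by smaller ratios than *Cnr1*. *Ndnf* was at 72.5 ± 46.2 against 18.1 ± 8.57 CPM and higher in 21 wells, *Kit* at 65.8 ± 37.6 against 14.3 ± 9.10 CPM and higher in 22, and *Lamp5* at 21 ± 10.1 against 11.8 ± 6.25 CPM and higher in 20. *Reln* was at 680 ± 233 against 508 ± 143 CPM and *Sv2c* at 96.1 against 55.8 CPM, both higher in 18 wells. *Nos1* was at 74.1 against 69.7 CPM and higher in 12 wells, and *Npy* and *Gabrd* were at 5.33 and 8.71 CPM against 10.4 and 13.9 CPM.

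Genes of MGE interneurons that the rule did not use were low. *Sst*, the somatostatin gene, was seen in 2 of 878 nuclei and *Pvalb*, the parvalbumin gene, in 4, against 10.9% of MGE-like nuclei for *Sst*. Their levels were 0.181 ± 0.705 and 0.647 ± 2.05 CPM, against 11.9 ± 6.33 and 20.0 ± 11.2 CPM. *Satb1*, a chromatin organizer of MGE interneurons, was lower in all 24 wells (38.7 ± 21.7 against 168 ± 51.7 CPM). The postsynaptic gene *Elfn1* (59.7 ± 28.6 against 141 ± 42.1 CPM) and the NMDA receptor gene *Grin3a* (107 ± 36.6 against 258 ± 77.6 CPM) were lower in 23 wells each.

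Across all genes with a mean of at least 50 CPM in either kind and outside the rule, 118 of 3542 (3.33%) were above the MGE-like level in every well and 147 (4.15%) were below it in every well. In the core the counts were 126 and 139, and without the nuclei of high doublet score 115 and 134. Leading genes above were *Col14a1* at 50.7 ± 53.0 against 1.14 ± 1.47 CPM (44.3-fold), *Syt6*, a synaptotagmin, at 162 ± 77.3 against 7.15 ± 11.8 CPM, and *Rgs12*, a regulator of G protein signalling, at 136 ± 59.7 against 6.61 ± 5.06 CPM. Leading genes below were *Gna14*, a G protein alpha subunit, at 1.96 ± 3.71 against 51.2 ± 27.3 CPM (26.1-fold lower) and *Lypd6* at 5.58 ± 6.61 against 72.3 ± 26.0 CPM (13-fold lower). The growth factor gene *Igf1* was also above in all 24 wells (131 ± 41.9 against 28.5 ± 14 CPM), and was in 46% of these nuclei, 15.8% of MGE-like nuclei and 1.95% of nuclei outside the GABAergic set.

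The receptor and channel genes were split rather than shifted together. Glutamate receptor genes below the MGE-like level in all 24 wells were *Gria1* (2635 ± 482 against 6060 ± 952 CPM), *Gria4* (1049 ± 182 against 1847 ± 319 CPM) and *Grm5* (1599 ± 305 against 3314 ± 534 CPM), which encode subunits of AMPA receptors and a metabotropic receptor. The kainate receptor gene *Grik2* was above in all 24 wells (2336 ± 387 against 1624 ± 327 CPM), as was the delta receptor gene *Grid1* (1014 ± 127 against 658 ± 102 CPM).

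Among channels, *Kcnc2*, which encodes a potassium channel of fast-spiking cells, was lower in 23 wells (868 ± 240 against 1837 ± 527 CPM), and the calcium channel gene *Cacna1a* was lower in all 24 (631 ± 141 against 1324 ± 269 CPM). *Kcnq5*, of the M-current family, was higher in 23 wells (1636 ± 405 against 588 ± 170 CPM) and the L-type channel gene *Cacna1c* in 24 (1296 ± 208 against 724 ± 133 CPM). The potassium channel genes *Kcnma1* and *Kcnd3* went opposite ways in all 24 wells, at 863 ± 128 against 1549 ± 249 CPM and at 806 ± 116 against 490 ± 94.2 CPM.

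Genes of other groups also differed in both directions. The GABA-A receptor subunit gene *Gabrg3* was lower in all 24 wells (1367 ± 271 against 2449 ± 260 CPM). The adhesion gene *Cntnap4* was lower in 24 wells (373 ± 116 against 865 ± 235 CPM). *Csmd3*, a complement-domain gene of neurons, was higher in all 24 wells (1516 ± 302 against 827 ± 375 CPM), and so was *Necab1* (275 ± 86.3 against 95.9 ± 26 CPM). The receptor genes *Chrna7* and *Chrm3*, for acetylcholine, were each higher in 23 wells, at 178 ± 37.3 against 103 ± 38.2 CPM and 899 ± 190 against 553 ± 77.0 CPM. The enzymes around CB1 did not follow *Cnr1*, with *Mgll*, which degrades an endocannabinoid, at 167 against 154 CPM and *Dagla*, which makes it, at 79.9 against 84.1 CPM (182 and 51.8 CPM in the core). *C5ar1*, the target of PMX205, was detected in 0 of 878 nuclei, which allows a share of nuclei with a detected transcript of up to 0.342% at this depth (3 counts, counting error only) and sets no limit on the share that express it.

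The share of a well's nuclei that met the rule did not pass the test in any comparison of groups. It was 1.85% at the lowest, 2.30% at the median and 3.01% at the highest in the 6 WT-veh wells. In WT-PMX it was 1.58%, 2.43% and 3.38%, in Arc-veh 1.41%, 2.69% and 4.60%, and in Arc-PMX 2.54%, 2.80% and 3.45%. All groups overlapped, and Arc-veh had the widest spread. The means were 2.38 ± 0.459% (SD, n = 6), 2.51 ± 0.763%, 2.89 ± 1.25% and 2.85 ± 0.323% in that order.

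By a two-sided exact permutation test over wells, adjusted over 4 comparisons, the difference was 0.513 percentage points for Arc-veh minus WT-veh (p = 0.368, adjusted p = 0.736) and -0.0399 for Arc-PMX minus Arc-veh (p = 0.946, adjusted p = 0.946). It was 0.128 for WT-PMX minus WT-veh (p = 0.719 by exact permutation, adjusted p = 0.946) and 0.473 for Arc-PMX minus WT-veh (p = 0.0736, adjusted p = 0.294). The core gave 0.484, -0.179, 0.0547 and 0.306 percentage points, with adjusted p of 0.693, 0.846, 0.846 and 0.519 by the same exact test. As a share of the GABAergic nuclei the set was 28.9 ± 5.35%, 28.9 ± 5.53%, 31.7 ± 9.0% and 27.6 ± 4.55% in the groups in the order above. A share of nuclei can move with the recovery of other cell types as well as with the number of these cells, and these cannot be told apart here. It can also move with depth, since the rule uses fixed counts. The median transcripts per nucleus of a well averaged 6648, 7637, 9104 and 8266 in the groups in the same order. After each nucleus was thinned to 2000 transcripts, Arc-PMX minus WT-veh was negative, as given below. The part of depth in the shares was not tested.

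**Figure D3:**
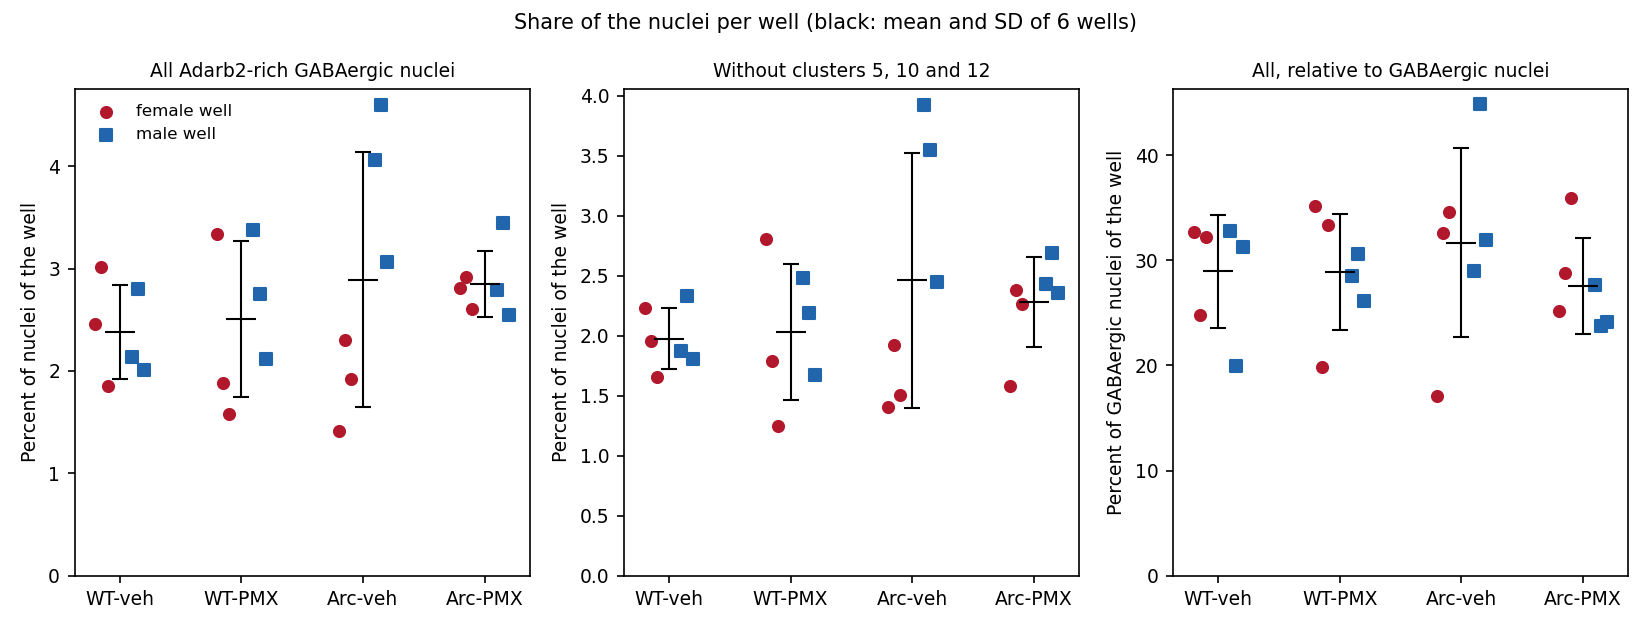
Share of the nuclei by group with 1 point per well, females and males marked apart, and the mean and SD of 6 wells in black: all *Adarb2*-rich nuclei as percent of the nuclei of the well, the core likewise, and all of them as percent of the GABAergic nuclei. The groups overlap, and in the first panel the Arc-veh females (1.41 to 2.31%) lie below the Arc-veh males (3.06 to 4.60%).

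Within Arc-veh the shares separated by sex, which was noticed after the data were seen. The Arc-veh females were at 1.41%, 2.31% and 1.92% (mean 1.88%) and the Arc-veh males at 4.06%, 4.60% and 3.06% (mean 3.91%), without overlap, at the smallest p that 3 wells against 3 allow (exact permutation, two-sided p = 0.1). The means of females and males were 2.44% and 2.32% in WT-veh, 2.27% and 2.75% in WT-PMX, and 2.78% and 2.93% in Arc-PMX. The difference Arc-veh minus WT-veh was -0.563 percentage points in females and 1.59 in males, and these differed by 2.15 (exact permutation within sex, p = 0.02, adjusted over 4 comparisons p = 0.04). For Arc-PMX minus Arc-veh the differences were 0.901 in females and -0.981 in males, a gap of -1.88 (exact permutation, p = 0.015, adjusted p = 0.04). With 1 well left out, the adjusted p stayed under 0.05 for 3 of 12 wells in the first comparison and for 4 of 12 in the second, and did not for each of the other wells. Both rest on the same 6 Arc-veh wells. The MGE-like nuclei of Arc-veh did not overlap between the sexes either, at 3.57 to 5.04% of nuclei in females (mean 4.38%) and 5.50 to 6.97% in males (mean 6.13%), and their gaps between the sexes were 1.2 and 0.00245 percentage points (exact permutation, adjusted p = 0.893 and 1).

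The difference between the sexes did not pass after adjustment under other measures of the same nuclei. In the core the gaps were 1.64 and -1.28 percentage points (exact permutation, p = 0.015 and 0.04, adjusted p = 0.06 and 0.08), and missed the threshold only after adjustment. After each nucleus was thinned to 2000 transcripts, which left 191 nuclei that met the rule, they were 0.326 and -0.386 (exact permutation, adjusted p = 0.407 for both). As a share of the GABAergic nuclei the gaps were 9.08 and -12.0 percentage points, both with an adjusted p of 0.65 by exact permutation. All GABAergic nuclei were 6.96% of nuclei in Arc-veh females and 11.3% in Arc-veh males on average, and the median transcripts per nucleus of the wells were 5276, 10176 and 9153 in those females and 7207, 14109 and 8704 in those males.

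Sub-clusters took variable shares of the *Adarb2*-rich nuclei of each well, and no test was made on them. Cluster 4, led by *Vip*, was 5.97 ± 4.14% of the *Adarb2*-rich nuclei of a WT-veh well (SD, n = 6), 8.01 ± 7.52% in WT-PMX, 9.46 ± 3.85% in Arc-veh and 8.21 ± 5.88% in Arc-PMX. Cluster 1, led by *Kit*, was 12.5 ± 6.19%, 10.9 ± 4.44%, 14.5 ± 8.39% and 9.40 ± 7.23% in the same order. Clusters 5 and 10 together were 9.84 ± 8.34%, 13 ± 5.78%, 13.2 ± 9.78% and 13.4 ± 11.5%. Cluster 12, with the myelin genes, held 14, 11, 2 and 15 nuclei in the 4 groups, or 5.84 ± 2.08%, 5.26 ± 3.59%, 0.873 ± 1.48% and 6.22 ± 6.02% of the *Adarb2*-rich nuclei of a well. The low number in Arc-veh moves with the glial genes given below.

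**Figure D4:**
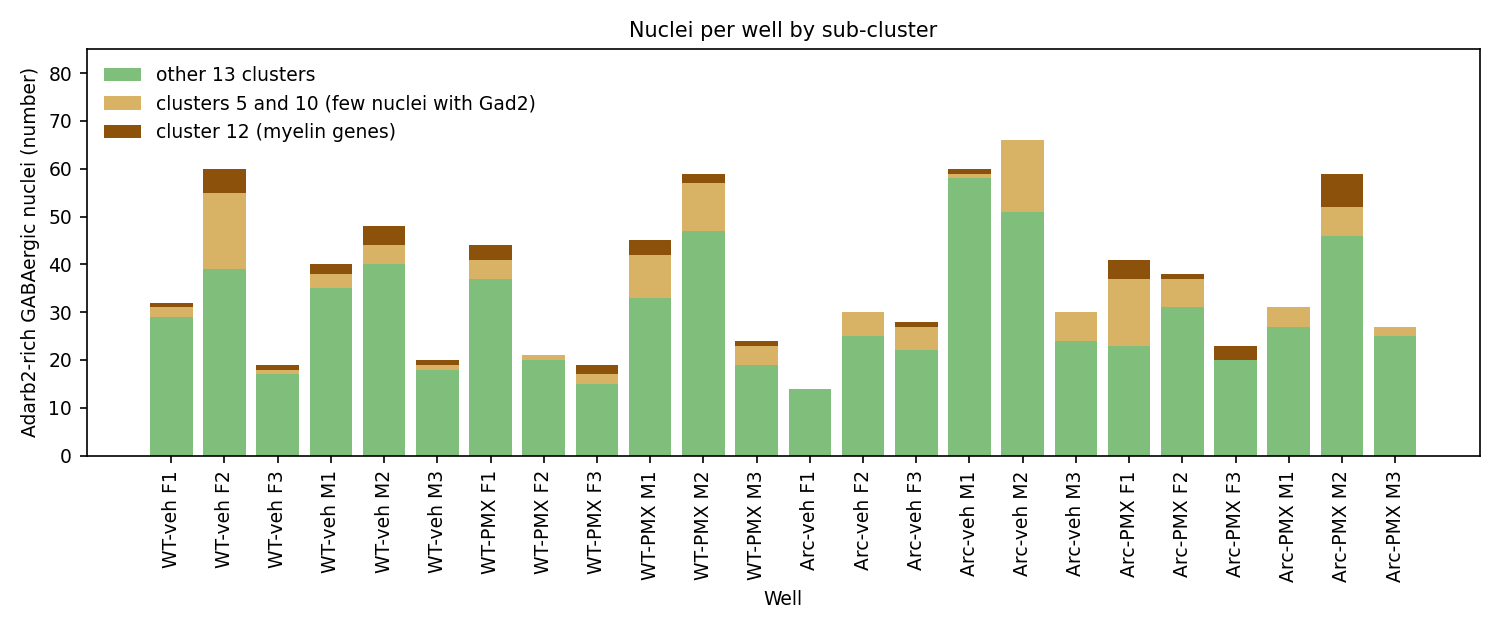
Number of *Adarb2*-rich nuclei in each of the 24 wells (stacked bars), split into the 13 core clusters, the low-*Gad2* clusters 5 and 10, and the myelin cluster 12. The bars run from 14 (Arc-veh F1) to 66 nuclei (Arc-veh M2), and cluster 12 holds 2 nuclei over all 6 Arc-veh wells.

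Gene expression in the set was then compared between groups, on counts summed per well with edgeR's quasi-likelihood test and sex as a covariate. None of 5900 genes tested passed an adjusted p of 0.05 in Arc-veh minus WT-veh (0% called), Arc-PMX minus Arc-veh (0%), WT-PMX minus WT-veh (0%), Arc-PMX minus WT-veh (0%), or the difference between the PMX205 effects in Arc and WT (0%). At an unadjusted p under 0.05 there were 272, 305, 162, 222 and 197 genes in that order, or 4.61%, 5.17%, 2.75%, 3.76% and 3.34% of those tested. Without the filter on low counts, 23026 genes were tested and 47 (10 higher, 37 lower), 121 (105 and 16), 16 (6 and 10), 31 (19 and 12) and 36 (25 and 11) were called in the same order, so the counts of 0 depend on that filter. Of the 47 and the 121, 36 and 56 were also tested with the filter, so the calls were not only of genes that it removed. With the filter, DESeq2 called 0 as well, with 249, 263, 134, 196 and 173 genes at an unadjusted p under 0.05. In the core, 0 of 5362 genes were called, with 224, 179, 168, 164 and 165 at an unadjusted p under 0.05. The median standard error of a log2 fold change was 0.243 in Arc-veh minus WT-veh, and 90% of its fold changes, by the 5th and 95th percentile, lay between -0.44 and 0.42. The comparisons share their Arc-veh and WT-veh wells. In these bulk sums, fewer nuclei of a sub-type and less RNA per nucleus cannot be told apart.

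The genes with the smallest p in Arc-veh minus WT-veh were *AY036118*, *Bicc1* and *Dock1*. *AY036118* (chr17:39847113-39848035, minus strand, a long intergenic noncoding RNA) is linked to ribosomal RNA repeats, so that its reads are of uncertain origin. It was at 193, 258 and 314 CPM (lowest, median and highest well) in WT-veh and at 261, 460 and 8922 CPM in Arc-veh, where the second highest well was at 2409, a log2 difference of 3.09 ± 0.67 (SE; adjusted p = 0.456). The groups overlapped and 2 Arc-veh wells carried most of the difference. In WT-PMX the values were 122, 263 and 1131 CPM and in Arc-PMX 196, 275 and 647 CPM. The same transcript had a log2 difference of 3.27 ± 0.70 in MGE-like nuclei and the genotype difference of the *Adarb2*-rich nuclei minus that of the MGE-like nuclei was -0.05 ± 0.18.

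*Bicc1* (chr10:70922832-71159700), which encodes an RNA-binding protein, was at 29.7, 47.2 and 65.4 CPM in WT-veh and 12.3, 17.9 and 31.6 CPM in Arc-veh, and at 26.3, 30.8 and 40.2 CPM in WT-PMX and 27.7, 35.8 and 64.7 CPM in Arc-PMX. The Arc-veh wells lay at the low end with a small overlap, and the log2 difference from WT-veh was -1.05 ± 0.27 (adjusted p = 0.745) and -0.99 ± 0.30 in the core, with -0.15 ± 0.25 in MGE-like nuclei. *Dock1* (chr7:134670654-135173639), an activator of the GTPase RAC in cell migration and engulfment, was at 26.3, 33.9 and 68.4 CPM in WT-veh and 0, 4.94 and 20.3 CPM in Arc-veh, which did not overlap (log2 difference -2.43 ± 0.64, adjusted p = 0.745). *Dock1* was too low in the core to be tested there.

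For Arc-PMX minus Arc-veh the genes with the smallest p were *Mertk*, *AY036118* and *Lrmda*. *Mertk* (chr2:128698956-128802894), a receptor kinase by which glia engulf dying cells and synapses, was at 0, 3.15 and 12.7 CPM in Arc-veh and 2.77, 31.8 and 97.3 CPM in Arc-PMX (log2 difference 2.69 ± 0.62, adjusted p = 0.599). Without the well Arc-PMX M3 it was called, at 3.02 (adjusted p = 0.0422). *Lrmda* (chr14:22019712-23056085) was at 0, 12.0 and 38.2 CPM in Arc-veh and 0, 85.6 and 201 CPM in Arc-PMX (log2 difference 2.47 ± 0.64, adjusted p = 0.739). *AY036118* had a log2 difference of -2.82 ± 0.66 (adjusted p = 0.599). *Mertk* and *Lrmda* had log2 differences of 0.11 and -0.52 in MGE-like nuclei, and neither passed the filter on low counts in the core. Both were among the leading genes of cluster 12, at 296 and 393 CPM there against 6.52 and 10.6 CPM in the rest of the set. Cluster 12 held 2 nuclei in Arc-veh and 15 in Arc-PMX, and 0 in the well Arc-PMX M3. The part of cluster 12 in these values was not tested.

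For WT-PMX minus WT-veh the leading genes were *Cdh18*, *Fbxo8* and *Slc44a2*, each with an adjusted p of 1. *Cdh18* (chr15:22549022-23474418), a cadherin of neurons, was at 131, 224 and 735 CPM in WT-veh and 70.4, 86.0 and 190.5 CPM in WT-PMX (log2 difference -1.54 ± 0.38). Its highest WT-veh well, M2, and its highest Arc-veh well, M1, had the highest shares of clusters 2 and 16 of their groups (20.8% and 10.4%, and 28.3% and 13.3% of their *Adarb2*-rich nuclei). Its highest WT-PMX well, M2, did not, at 6.78% and 0% against up to 14.3% of cluster 2 in the other WT-PMX wells. At a clustering resolution of 0.4, where clusters 2 and 16 fall into 1 cluster, *Cdh18* is among the leading genes of that cluster. The part of those clusters in the *Cdh18* values was not tested. *Fbxo8* (chr8:56551090-56593939), an F-box protein gene, was at 16.3, 38.2 and 44.6 CPM in WT-veh and 49.4, 65.0 and 90.5 CPM in WT-PMX, which did not overlap (log2 difference 0.77 ± 0.19). *Slc44a2* (chr9:21320698-21355028), of the choline transporter-like family, was at 39.5, 63.4 and 78.5 CPM in WT-veh and 17.5, 30.0 and 46.0 CPM in WT-PMX (log2 difference -0.87 ± 0.25). The core gave -1.60, 0.78 and -0.82 for the 3 genes, and MGE-like nuclei -0.17, 0.15 and -0.08.

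For Arc-PMX minus WT-veh *Gfod2* and *6530403H02Rik* were among the 3 genes with the smallest p, both with an adjusted p of 1. *Gfod2* (chr8:105713854-105758664) was at 31.2, 69.3 and 107 CPM in WT-veh and 14.4, 31.4 and 38.2 CPM in Arc-PMX (log2 difference -1.09 ± 0.28, and -0.96 in the core), and it was called without the well WT-veh F2, at -1.37 (adjusted p = 0.0322). The noncoding RNA *6530403H02Rik* (chr3:120604109-120886733) was at 11.9, 26.5 and 106 CPM in WT-veh and 40.4, 109 and 178 CPM in Arc-PMX. Its log2 difference was 1.5 ± 0.39, and 2.14 ± 0.68 in the core. It was among the leading genes of cluster 5, which the core leaves out, and the part of that cluster was not tested.

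The difference between the PMX205 effects in Arc and in WT was led by *Bcl9*, a coactivator of beta-catenin (chr3:97203662-97297917), at -0.99 ± 0.24 on the log2 scale (adjusted p = 1). *Bcl9* medians were 106 CPM in WT-veh, 153 in WT-PMX, 142 in Arc-veh and 97.7 in Arc-PMX, and the ranges of WT-veh (80.8 to 139.7) and WT-PMX (114 to 181) overlapped. *AY036118* and *Cdh18* followed, at -3.50 ± 0.92 and 1.92 ± 0.52, and *Cdh18* was called without the well Arc-veh M1, at 2.47 (adjusted p = 0.0231).

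**Figure D5:**
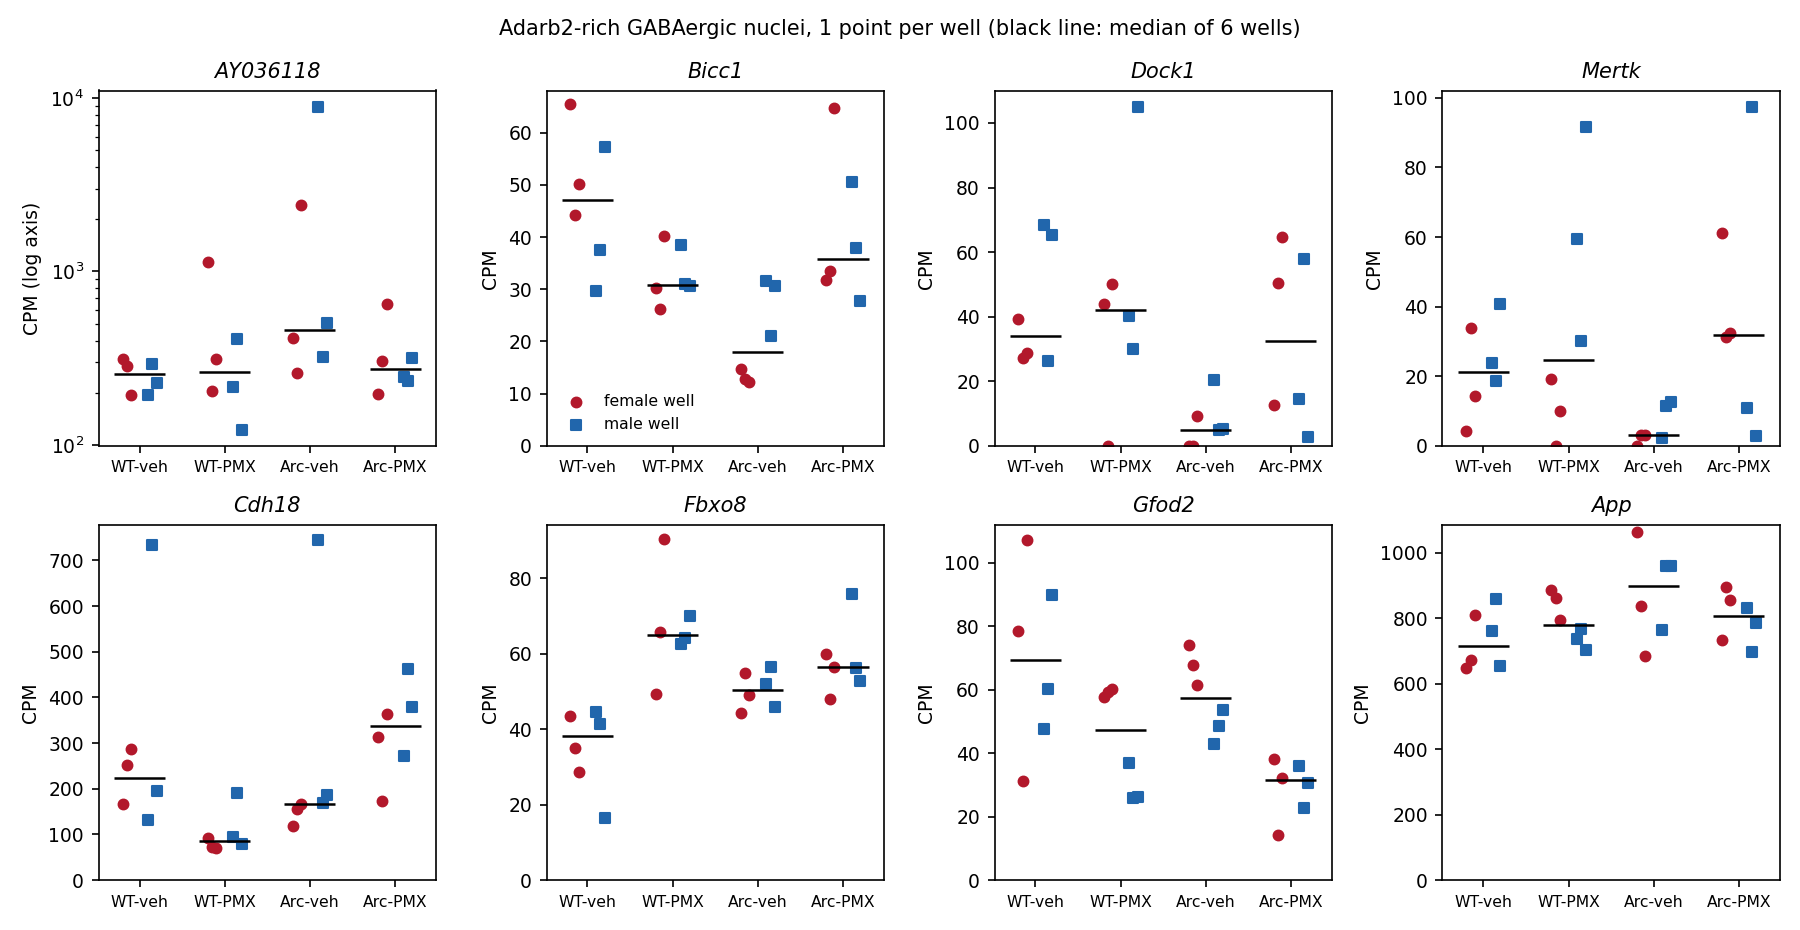
Level in CPM of each well (1 point per well, females and males marked apart, line at the median of 6 wells; log axis for *AY036118* only) for 7 of the genes with the smallest p and for *App*. *Fbxo8* does not overlap between WT-veh (16.3 to 44.6) and WT-PMX (49.4 to 90.5), and *AY036118* has 1 Arc-veh well at 8922.

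The marker genes of the set, given as CPM of the raw sums, overlapped between the groups. *Vip* was at 0, 4.68 and 45.3 CPM (lowest, median and highest) in WT-veh, 0, 21.3 and 65.7 in WT-PMX, 12.2, 29.1 and 50.5 in Arc-veh, and 0, 12.3 and 60.4 in Arc-PMX. *Cnr1* was at 298, 364 and 438 CPM in WT-veh, 273, 472 and 515 in WT-PMX, 332, 426 and 749.9 in Arc-veh, and 135, 425 and 483 in Arc-PMX. The log2 differences Arc-veh minus WT-veh were 1.02 ± 0.63 for *Vip* and 0.39 ± 0.22 for *Cnr1*, and those of Arc-PMX minus Arc-veh were -0.49 ± 0.58 and -0.32 ± 0.21. *Gad2* was at 312, 353 and 450 CPM in WT-veh, 297, 385 and 591 in Arc-veh, and 243, 324 and 367 in Arc-PMX. *Gad1* medians ran from 306 CPM in Arc-PMX to 353 CPM in WT-veh. *Adarb2* medians were 18941, 13408, 14982 and 12906 CPM in the order of *Vip* above. The rule used *Gad1*, *Gad2* and *Adarb2*, so their levels are given without a test.

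With the filter on low counts, no gene of any pathway list passed in any comparison. The list medians below are log2 differences for Arc-veh minus WT-veh and Arc-PMX minus Arc-veh, which share the Arc-veh wells, with those of the core after them. The medians of all genes tested were 0.0055 and -0.0012. VIP and CCK genes had 5 of 12 members tested (median 0.39 and -0.32, in the core 0.33 and -0.14 over 4) and neurogliaform genes 6 of 9 (0.03 and -0.38, core -0.10 and -0.24). CGE transcription factors had 5 of 9 tested (0.07 and -0.14, core -0.0008 and -0.04), with *Npas3* at 0.07 ± 0.20 and -0.19 ± 0.20. GABA receptor genes had 13 of 14 (0.00 and -0.04, core -0.06 and 0.02) and glutamate receptor genes 19 of 19 (0.02 and 0.01, core 0.0037 and -0.01), with *Gria1* at -0.04 ± 0.13 in the first comparison and *Grik2* at 0.27 ± 0.15. Ion channel genes had 22 of 22 (0.08 and -0.07, core -0.0049 and -0.03) and adhesion genes 16 of 16 (0.05 and -0.09, core -0.01 and -0.08). *Erbb4* was at 0.22 ± 0.19 and -0.26. The intervals of these single genes span changes of the size of their standard errors, and the tests do not show that the levels were alike.

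Serotonin and acetylcholine receptor genes had 8 of 13 members tested (median 0.06 and -0.24, core -0.05 and -0.17). Among them, both at an unadjusted p under 0.05 in the second comparison, *Htr3a* was at 0.46 ± 0.41 in Arc-veh minus WT-veh and -0.88 ± 0.42 in Arc-PMX minus Arc-veh, and the muscarinic receptor gene *Chrm2* at 0.86 ± 0.58 and -1.22 ± 0.57. *Chrm2* was at 3192 CPM in cluster 13 against 35.2 CPM in the rest. That cluster was 5.02 ± 4.69% of the nuclei of a WT-veh well (SD), 6.79 ± 4.51% in Arc-veh and 4.80 ± 4.89% in Arc-PMX. Its part in the *Chrm2* values was not tested. Endocannabinoid genes had 7 of 8 tested (0.10 and -0.13, core 0.18 and -0.08), with *Mgll* at -0.16 ± 0.18 in the first. Calcium-buffering genes had 7 of 11 (0.06 and -0.13, core 0.12 and -0.16 over 6), with *Necab1*, a calcium-binding protein gene, at 0.34 ± 0.23 and -0.53 ± 0.22, the latter at an unadjusted p under 0.05. *Nrg3*, a ligand of ERBB4, was at 0.31 ± 0.13 and -0.37 ± 0.13, both at an unadjusted p under 0.05. None of these passed after adjustment over all genes by edgeR.

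APP-processing genes had 7 of 10 members tested (0.06 and 0.07, core 0.06 and 0.01) and complement genes 3 of 13 (0.09 and 0.02, core 0.07 and 0.04), the latter being *Csmd1*, *Csmd2* and *Csmd3*, which encode complement regulators of neurons. *Csmd1* was at 0.11 ± 0.15 and *Csmd3* at 0.09 ± 0.16 in Arc-veh minus WT-veh. Activity-induced genes were mostly too low, with 2 of 17 tested, *Homer1* at -0.12 ± 0.28 and *Nr4a1* at -0.43 ± 0.41, and of 12 neuropeptide genes only *Vip* was tested. Among transcripts linked to ribosomal RNA, 8 of 8 were tested (0.39 and -0.54, core 0.24 and -0.56). Of markers of other neurons, 2 of 7 excitatory genes were tested (-0.65 and 0.68, core -0.49 and 0.45), 4 of 6 dentate granule genes (0.09 and 0.30, core -0.14 and 0.51 over 3) and 3 of 6 Cajal-Retzius genes (-0.15 and -0.21, core -0.16 and -0.05).

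Oligodendrocyte genes had the list median farthest from 0 in both comparisons, and they moved with cluster 12. The 5 oligodendrocyte genes tested, of 6, had a median of -1.74 in Arc-veh minus WT-veh, with 4 at an unadjusted p under 0.05, and 1.92 in Arc-PMX minus Arc-veh, with 5. The summed level of the 6 oligodendrocyte genes in these nuclei was 150, 428 and 1018 CPM (lowest, median, highest) in WT-veh, 218, 592 and 1387 in WT-PMX, 27.5, 117 and 151 in Arc-veh, and 57.6, 388 and 1044 in Arc-PMX. In the core 1 of the genes was tested, at 0.45 and 0.28. The 3 microglia genes tested, of 6, had a median of -0.29 and 1.09, with 0 and 3 at an unadjusted p under 0.05 (and 1.24 in Arc-PMX minus WT-veh, with 3), and none passed the filter in the core, and the 3 astrocyte genes, of 8, had a median of -1.14 and 0.51, with 2 and 0 at an unadjusted p under 0.05, and -0.21 and 0.04 over 2 in the core. *Dock1*, *Mertk* and *Lrmda*, given above, likewise could not be tested in the core. The part of glial transcripts in those values was not tested beyond this.

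*App* (chr16:84949685-85173766, minus strand) served as a check of the genotype label, with the limit that the human transgene is absent from the reference and its reads can map to the mouse gene only in part. In all nuclei of a well it was at 682 ± 96.3 CPM in Arc (569 to 891, n = 12) and 522 ± 36.1 CPM in WT (453 to 592, n = 12), which overlapped: WT-PMX F3, at 592, lay above Arc-veh M1 (584), Arc-PMX M1 (590.5) and Arc-PMX M2 (569), so *App* does not settle the label of each well. The study left out a sample of its wild-type group whose expression it took for Arctic, without naming the well, so a well labelled WT here may be Arctic. In the *Adarb2*-rich nuclei it was at 649.7, 717 and 861 CPM in WT-veh and 685, 899 and 1065 CPM in Arc-veh, which overlapped (log2 difference 0.25 ± 0.13, adjusted p = 1).

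Whether the genotype difference itself differed from that in MGE-like nuclei was tested with the well as a block in the 12 wells of WT-veh and Arc-veh. Of 6516 genes tested by edgeR, 0 (0%) were called, with 236 at an unadjusted p under 0.05 and 229 with another scaling. Without the filter on low counts 13 of 21311 genes were called, 4 higher and 9 lower. DESeq2 was not run for this comparison. For *Bicc1* the difference between the kinds was -0.73 ± 0.36 on the log2 scale and for *Dock1* it was -2.0 ± 0.67, both with an adjusted p of 1.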

How the data were processed

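RNA of single hippocampal nuclei was measured by split-pool barcoding in 24 first-round wells, 6 per group, spread over 7 sublibraries. The authors deposited raw transcript counts per gene and barcode, which carry no normalization. Their reads were converted with bcl2fastq, per the labels, and assigned to mm10 genes by the Parse Biosciences pipeline. Group and sex of each well came from the deposited sample sheet. Columns of the authors' own comparisons were not used. The authors left out 1 sample of the wild-type group because its expression marked it as Arctic, without giving its well, so all wells were kept and 1 well labelled WT may be Arctic.

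The members and gene lists were chosen with earlier results of these data known. Counts of the nuclei were summed per well, wells with at least 10 nuclei entered, and edgeR 4.0.16 (R 4.3.3) fitted all 4 groups with TMM scaling, filterByExpr, sex as a covariate and the quasi-likelihood test, adjusted by Benjamini-Hochberg over all genes (threshold 0.05). On simulated counts for Arc-veh minus WT-veh (5722 genes), 73.6% of 87 genes changed by 1 on the log2 scale and 98.1% of 107 genes changed by 2 were recovered, with 6 false calls. The changed genes were taken only from those above a minimum mean level. Counts were drawn with the trend of spread with level, without spread particular to a gene or from mixed clusters. Recovery in the measured counts can therefore be lower, and the simulation does not show that such changes were absent. DESeq2 1.42.0 was the other tool. CPM values of genes compared between groups are on TMM-scaled library sizes unless called raw. Shares were compared by two-sided exact permutation tests over wells (scipy 1.17.1, numpy 2.4.6, pandas 2.3.3, Python 3.11.15).

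Nuclei were clustered in scanpy 1.11.5 with leidenalg 0.10.2 at resolution 0.8, from 15 neighbours in a space of 30 principal components of 2000 variable genes. Doublets were scored by Scrublet (expected rate 0.06) and kept, with scores above 0.25 removed as an alternative, since mixed nuclei can pass the rule. Named genes were, per comparison, up to 10 called genes with the largest change, or the 3 with the smallest p where fewer than 3 were called, together with the markers, the genes of the interneuron lists for levels, the 3 most abundant members of other lists, of which only examples are given here, and *App*. Some genes that this rule names are not reported here. Coordinates are those of GENCODE M21 on mm10.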

Additional observations from a re-analysis of the deposited data

Results flagged for a closer look

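In 6 of 60 tests of single wells, 1 well stood far from the other 5 of its group (Dixon's test), where chance gives about 1 in 20. *AY036118*, the transcript linked to ribosomal RNA, was at 1131 CPM in WT-PMX F1 (others 122 to 406), at 8922 CPM in Arc-veh M1 (others 261 to 2409) and at 647 CPM in Arc-PMX F3 (others 196 to 316). *Cdh18* was at 735 CPM in WT-veh M2 (others 131 to 286), at 190.5 CPM in WT-PMX M2 (others 70.4 to 94.7) and at 744 CPM in Arc-veh M1 (others 118 to 186). WT-veh M2 and Arc-veh M1 also had the highest shares of clusters 2 and 16 in their groups (20.8% and 10.4%, and 28.3% and 13.3% of their *Adarb2*-rich nuclei), whereas WT-PMX M2 did not (6.78% and 0%), and the part of these clusters in *Cdh18* was not tested.

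After the Arc-veh females and males were seen not to overlap in the share of *Adarb2*-rich nuclei, the difference between the sexes was computed, at 2.15 percentage points for Arc-veh minus WT-veh and -1.88 for Arc-PMX minus Arc-veh (exact permutation within sex, adjusted p = 0.04 for both). The first stayed under 0.05 after adjustment only without WT-veh F3, Arc-veh F2 or Arc-veh M3, and the second only without Arc-veh F2, Arc-veh M3, Arc-PMX F3 or Arc-PMX M2. With any other single well of the compared groups left out, the adjusted p ran from 0.05 to 0.09. In the core the adjusted p was 0.06 and 0.08, as a share of GABAergic nuclei 0.65 for both and after thinning 0.407 for both (exact permutation). The MGE-like nuclei of Arc-veh did not overlap between the sexes either. These tests share the Arc-veh wells and restate the separation that prompted them, so they are no independent evidence of a sex difference.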

How the results depend on the processing

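Of the values recomputed under other choices, 752 kept their direction and their side of the threshold, and the rest reversed, weakened, strengthened or moved. No gene and no group difference in share passed in the main setting. For most values, keeping the side of the threshold therefore means that they still did not pass. The count of called genes stayed at 0 under other scaling, DESeq2, no sex covariate, fits of the compared groups alone, without WT-veh F3 and M3, without ribosomal transcripts, doublets or nuclei of at least 1% mitochondrial transcripts, under the stricter rule and with at least 20 nuclei per well. Without a filter on low counts 23026 genes were tested and 47, 121, 16, 31 and 36 were called for genotype under vehicle, PMX205 in Arc, PMX205 in WT, both together and the difference of PMX205 effects. In the comparison with MGE-like nuclei 13 of 21311 were called. All 6 listed oligodendrocyte markers were among the 47 and among the 121, with 2 and 3 transcripts linked to ribosomal RNA. Of the 47 and the 121, 36 and 56 were also tested with the filter. The cause of the calls was not tested. With 1 well left out, 0 to 1 genes were called in 3 comparisons: *Mertk* (3.02, adjusted p = 0.0422) without Arc-PMX M3, *Gfod2* (-1.37, adjusted p = 0.0322) without WT-veh F2 and *Cdh18* (2.47, adjusted p = 0.0231) without Arc-veh M1. Arc-PMX M3 held 0 nuclei of cluster 12, of which *Mertk* was a leading gene. *App* in Arc-PMX minus WT-veh was -0.018 in the core.

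Shares did not pass in any setting. Arc-veh minus WT-veh ran from 0.173 to 0.810 percentage points with 1 well left out and 0.287 to 0.807 with 1 sublibrary left out. Arc-PMX minus Arc-veh ran from -0.336 to 0.301 and from -0.287 to 0.187, WT-PMX minus WT-veh from -0.0466 to 0.313 and from -0.0522 to 0.308, and Arc-PMX minus WT-veh from 0.355 to 0.600 and from 0.319 to 0.602. As a share of GABAergic nuclei, WT-PMX minus WT-veh was -0.0202 and Arc-PMX minus WT-veh -1.36. The latter was -0.0970 after thinning, and the former was -0.0958 without WT-veh F3 and M3. In females alone the first 3 differences were -0.563, 0.901 and -0.177. The difference between the sexes, 2.15 and -1.88, ran from 1.81 to 2.57 and from -2.30 to -1.54 with 1 well left out (exact permutation, p = 0.01 to 0.045 and 0.005 to 0.035, adjusted p = 0.03 to 0.09 and 0.02 to 0.08), and lost the call for 9 and 8 of 12 wells. It was 1.64 and -1.28 in the core, 9.08 and -12.0 as a share of GABAergic nuclei, and 0.326 and -0.386 after thinning. These settings, the core and single sexes were chosen after the data were seen.

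A replicate block of sex and number called 0 genes. The numbers did not pair the wells (correlation of deviations, median 0.0166 over 36 pairs of the same sex and number, -0.00767 over 72 others). At a Leiden resolution of 0.4 there were 11 clusters.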
